A study of Homo sapiens with 8 samples.

Results

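The kinetochore and spindle checkpoint genes are 43 named genes whose products build the protein assembly that joins a chromosome to spindle microtubules, or signal from it. The members were chosen by name, as the rows of the count table whose gene symbol equals a listed one, and all 43 were found among the 16082 genes of the table. By role they are 4 genes of the centromeric nucleosome and its loading, 14 of the constitutive centromere-associated network, 10 of the KNL1, MIS12 and NDC80 complexes, 3 of the RZZ complex, 3 of the SKA complex, 6 of the spindle checkpoint, and 3 of the corona and spindle attachment proteins. Poly(A) RNA of 8 samples of KYSE150, an established line of human esophageal squamous cell carcinoma, was sequenced. Of these, 4 samples carry the genotype Control and 4 the genotype shHNRNPC, a short hairpin RNA knockdown of HNRNPC, which encodes a nuclear RNA-binding protein. None of the samples has another treatment in the labels, and the labels name neither the hairpin sequence, the control construct, the time after knockdown nor whether the knockdown cells are 1 clone. They also do not say whether replicates are separate cultures. The p-values weigh the group difference against the spread between replicates, which may be only technical variation, and so they speak only of these samples.

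As background, the kinetochore is built in layers. Nucleosomes with the histone variant CENP-A mark the centromere, the constitutive centromere-associated network (CCAN) sits on them through the cell cycle, and the KNL1, MIS12 and NDC80 complexes (together the KMN network) are recruited for mitosis and bind microtubules. Kinetochores without microtubules recruit the checkpoint kinases TTK and BUB1 and the MAD and BUB proteins, which delay anaphase by inhibiting the anaphase-promoting complex. Many of these genes are known to be transcribed mostly in G2 and mitosis, under promoters with CCAAT boxes, bound by NF-Y, and a cell cycle genes homology region (CHR), bound by the DREAM and MYB-MuvB complexes. In bulk RNA, a different share of cells in G2 or mitosis and a different amount of RNA per cell cannot be told apart.

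Library totals were 28323403 to 34913500 counts, and each of the 43 genes had at least 339 counts in every library. HNRNPC was at 601, 589.7, 571 and 587 counts scaled to library size (CPM) in control replicates 1 to 4 and at 33.8, 32.9, 32.5 and 36.5 CPM in shHNRNPC replicates 1 to 4, which is 5.78% of the control mean. CPM values here are scaled by TMM (trimmed mean of M values) factors. Of the squamous epithelial markers, KRT5 was at 564 ± 6.60 CPM, CDH1 at 314 ± 7.13 CPM, TP63 at 176 ± 2.14 CPM and KRT14 at 8.35 ± 0.661 CPM in controls (SD, n = 4). The 6 markers summed to 1285 to 1321 CPM in controls and 2222 to 2272 CPM in shHNRNPC libraries, and they moved in different directions. KRT17, KRT5, CDH1 and EPCAM rose by 1.70, 0.99, 0.69 and 0.28 on the log2 scale, while TP63 and KRT14 fell, to 129 ± 1.63 and 4.89 ± 0.482 CPM, at -0.45 and -0.77. Markers of fibroblasts, all 5 of which were measured, summed to 3.65 to 3.88 CPM in controls and 8.38 to 9.50 CPM in shHNRNPC libraries, most of it COL1A1, and COL1A2 and DCN had at most 1 count per library. The 3 endothelial markers summed to 2.03 to 2.45 and 1.21 to 1.84 CPM. Of 4 immune markers only CD14 was analysed here, at most 0.390 CPM. The part of these marker shifts in the results below was not tested. The second principal component of log2 CPM, with 4.51% of the variance, set shHNRNPC replicates 1 and 4 apart from replicates 2 and 3, so the main counts are also given without replicates 1 and 4.

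Most kinetochore and checkpoint genes had more RNA after HNRNPC knockdown. Of the 43 genes, 35 rose (81.4%), 3 fell and 5 did not pass the test, edgeR's quasi-likelihood test with Benjamini-Hochberg adjustment over the 12001 genes tested and a threshold of 0.05. Over all genes tested, 77.3% passed and 22.7% did not, 38.7% being higher and 38.6% lower. A rise of at least 1.5-fold was seen for 17 of the 43 (39.5%), against 9.61% of all genes tested. None of the 43 fell by 1.5-fold or more, with edgeR or with DESeq2, whereas 12.2% of all genes tested did. The median log2 fold change was 0.47 for the 43 genes and -0.01 over all genes tested. CPM in the 2 groups did not overlap for 35 of the 43 in the higher direction and 3 in the lower, where 35.4% of all genes tested separated in each direction and 70.8% in either. The 35 that separated include NSL1, which did not pass the test, and leave out CENPT, which passed with overlapping groups. Without shHNRNPC replicates 1 and 4, 32 rose, 19 of them by at least 1.5-fold, 3 fell, and the median was 0.51. The 3 calls lost there were CENPK, CENPT and CENPU, all of the CCAN, so the counts that rose in the other roles stayed as given below. With library totals in place of TMM factors the counts were 32 and 3, and the calls lost were again those of CENPK, CENPT and CENPU.

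Together, the 43 genes took 0.284% to 0.288% of all counts in controls and 0.412% to 0.414% in shHNRNPC libraries. Their summed CPM was 2833 ± 18.3 (SD, n = 4) in controls and 4159 ± 11.3 (SD, n = 4) in shHNRNPC libraries. A single gene, CENPF, made up a large share of this sum. Without CENPF the sum was 2098 ± 6.53 CPM and 2687 ± 6.86 CPM (SD, n = 4 each). By role, the medians of the log2 fold changes were 1.00 for the corona and spindle attachment proteins, 0.66 for centromeric nucleosome loading, 0.52 for the CCAN, 0.39 for the KMN network, 0.30 for the checkpoint, 0.28 for the SKA complex and 0.10 for the RZZ complex. The ranges of neighbouring classes in this order overlap, and the classes were not tested against each other. Groups are often said below not to overlap, which held for 70.8% of all genes tested, 35.4% in each direction.

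**Figure D1:**
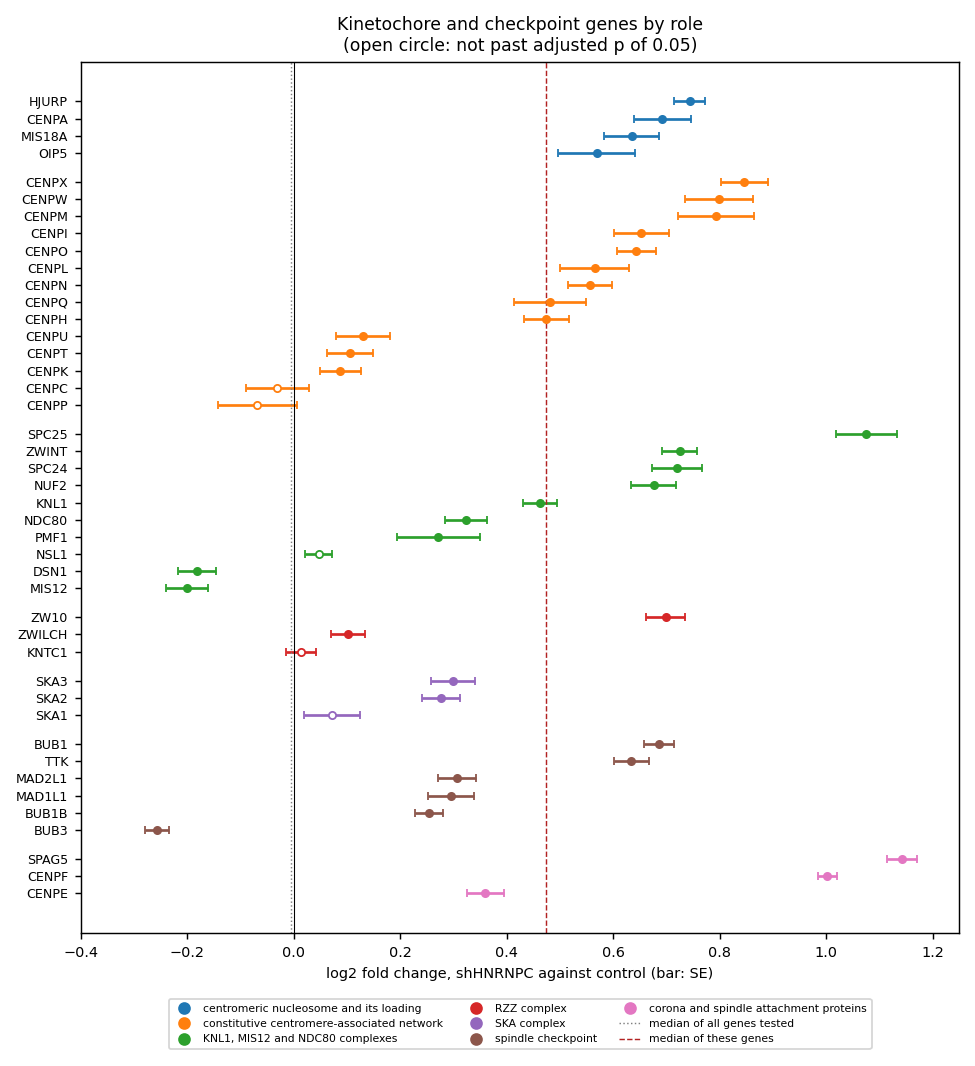
Log2 fold change (shHNRNPC against control, x axis) of each of the 43 genes, grouped and coloured by role, with bars of 1 standard error; open circles are genes that did not pass an adjusted p of 0.05. The 35 genes that rose lie between 0.09 and 1.14, the 3 that fell between -0.26 and -0.18, and the dashed and dotted lines mark the medians of the 43 genes (0.47) and of all genes tested (-0.01).

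Promoter sequences are shown because many of these genes share the promoter words named in the background above. Promoter windows, 250 bases before to 50 bases after the annotated start, were available from RefSeq (GRCh38.p14) for 35 of the 43 genes. CENPH, CENPL, CENPM, KNL1, KNTC1, BUB3, TTK and MIS18A had none. Both strands were searched for the CHR forms TTTGAA and TTCGAA. In the windows of 30 bases or fewer that follow, 5′ to 3′ on the strand of the gene, capitals mark the CHR word, written TTCAAA where TTTGAA lies on the opposite strand. They are from SPAG5, SPC25 and CENPF, which rose most, and from other genes described below, with SKA1 and CENPC as genes that did not pass the test.
SPAG5, chr17:28599005-28599034, minus strand: gcgcagagcaggTTCAAAcacagacggcgg
SPC25, chr2:168890416-168890445, minus strand: aagtgcactaggTTTGAAatcggaaagttg
CENPF, chr1:214603223-214603244, plus strand: ggctgcgggcagTTTGAAttag
CENPW, chr6:126340120-126340149, plus strand: gttggcggcggaTTCGAAcgttcggactga
NUF2, chr1:163321958-163321987, plus strand: ggaggcggcaagTTTGAAaagtgatgacgg
CENPA, chr2:26786026-26786055, plus strand: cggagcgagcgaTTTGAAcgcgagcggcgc
BUB1, chr2:110678045-110678074, minus strand: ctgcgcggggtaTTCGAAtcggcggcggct
OIP5, chr15:41332573-41332602, minus strand: gcctggcgtgtaTTCGAAaggaaggcgccg
NDC80, chr18:2571542-2571571, plus strand: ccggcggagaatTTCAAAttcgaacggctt
BUB1B, chr15:40161034-40161063, plus strand: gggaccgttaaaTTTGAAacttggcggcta
SKA1, chr18:50375068-50375095, plus strand: cgcggcgggcggTTTGAAttttgcttac
CENPC, chr4:67545576-67545605, minus strand: tgtgtctccgggTTCAAAcccaggcacagg
Counting the first transcribed base as 1, the word began at 4 in SPAG5, -3 in SPC25, 41 in CENPF, 18 in CENPW, 17 in NUF2, -18 in CENPA, 2 in BUB1 and OIP5, -23 in BUB1B, 35 in SKA1 and -90 in CENPC. In NDC80 a TTCGAA follows directly on the marked TTCAAA.

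A CHR word of either form was found for 19 of the 35 genes (54.3%), against 15.4% of the 9743 tested genes with a window and 16.4% of all 35116 windows. Within 50 bases of the start, a distance chosen after the positions were seen, it was found for 16 of the 35 (45.7%), against 4.85% of tested genes. TTTGAA was found for 16 of the 35 (45.7%), against 13.7% of tested genes and 15.2% of all windows. TTCGAA was found for 4 (11.4%), namely OIP5, CENPW, NDC80 and BUB1, against 2.27% of tested genes and 1.45% of all windows. Of the 19 genes with a CHR word, 17 rose, 11 of them by at least 1.5-fold, and 0 fell in edgeR's and in DESeq2's test or at an unadjusted p under 0.05. Their median log2 fold change was 0.68. Of the 16 genes without one, 12 rose, 2 fell (MIS12 and DSN1) and 3 rose by at least 1.5-fold, with a median of 0.20. Over all tested genes the medians with and without a CHR word were 0.02 and -0.01. Over the tested genes with a window, a word anywhere in it went with almost no difference in the median. Medians for a word within 50 bases of the start were not taken over these genes. SKA1 and CENPC carry the word and did not pass the test. A match is a description of these letters, not of a bound site.

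CCAAT, the NF-Y box, was found on either strand for 22 of the 35 genes (62.9%), in 34.6% of all windows and for 43.4% of tested genes. Both a CHR word and CCAAT were present for 12 of the 35 (34.3%), against 6.38% of all windows and 6.62% of tested genes. Of those 12 genes 11 rose, the median log2 fold change being 0.70, and the remaining gene, CENPC, did not pass. Of the 23 other genes with a window 18 rose and 2 fell, and their median was 0.28. Over all tested genes the medians with and without both words were 0.10 and -0.01. E2F forms (TTTGGCGC, TTTCCCGC, TTTCGCGC or TTTGCCGC) were found for 4 of the 35 (11.4%), namely CENPA, OIP5, CENPU and MIS12, in 3.31% of all windows and for 6.83% of tested genes. The longer stretches below lie upstream of a RefSeq start, hold 5 to 26 bases of annotated exon, and show how the words are arranged, with CHR words and NF-Y boxes of either strand in capitals. HJURP and ZWINT hold both words, CENPX and SPC24 hold NF-Y boxes without a CHR word, and DSN1, which fell, holds neither in its window. MIS12, which also fell and is not shown, holds CCAAT at -95 and -42 from 1 of its 2 annotated starts, without a CHR word.
HJURP, chr2:233854556-233854715, minus strand: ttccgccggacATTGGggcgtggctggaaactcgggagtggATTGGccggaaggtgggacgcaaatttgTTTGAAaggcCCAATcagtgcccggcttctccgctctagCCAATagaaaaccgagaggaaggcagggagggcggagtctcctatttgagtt
ZWINT, chr10:56361260-56361409, minus strand: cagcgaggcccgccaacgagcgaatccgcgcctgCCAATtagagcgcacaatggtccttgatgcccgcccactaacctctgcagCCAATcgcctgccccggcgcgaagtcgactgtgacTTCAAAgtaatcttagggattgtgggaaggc
CENPX, chr17:82022899-82023068, minus strand: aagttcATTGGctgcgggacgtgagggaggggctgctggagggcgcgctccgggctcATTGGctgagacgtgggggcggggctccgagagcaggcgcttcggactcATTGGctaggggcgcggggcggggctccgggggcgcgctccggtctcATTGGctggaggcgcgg
SPC24, chr19:11155783-11155932, minus strand: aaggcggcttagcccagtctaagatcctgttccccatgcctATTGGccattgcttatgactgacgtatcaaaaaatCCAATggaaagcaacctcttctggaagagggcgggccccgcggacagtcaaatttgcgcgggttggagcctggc
DSN1, chr20:36773814-36773953, minus strand: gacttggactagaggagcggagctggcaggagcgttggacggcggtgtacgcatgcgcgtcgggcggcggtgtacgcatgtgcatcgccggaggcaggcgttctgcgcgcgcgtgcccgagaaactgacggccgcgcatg
ZWINT has 2 annotated starts, and its stretch is upstream of the more downstream one, so it includes the first bases transcribed from the other. The HJURP stretch has 4 CCAAT words around 1 CHR word, and the CENPX stretch has 4 CCAAT words. These 2 genes rose by 0.74 and 0.85 on the log2 scale. Several CCAAT words were also found in the windows of CENPF, SKA2, CENPK and MIS12, with log2 fold changes of 1.00, 0.28, 0.09 and -0.20. Whether the number of words goes with the change was not tested.

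**Figure D2:**
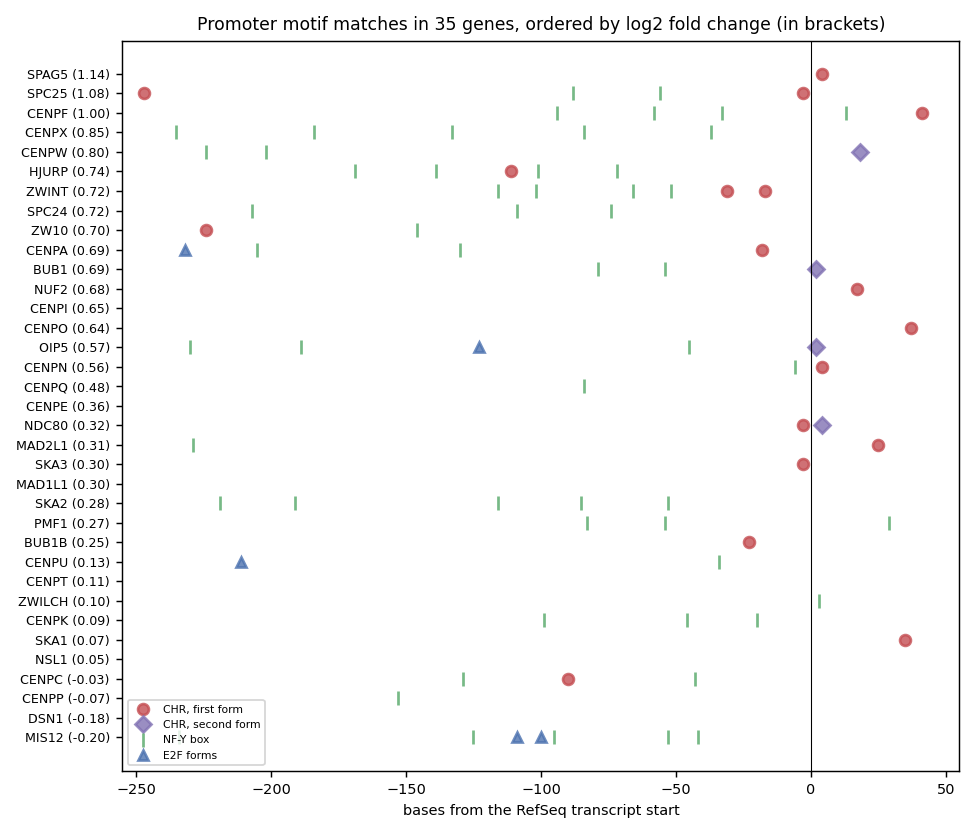
Positions of CHR words (circles for TTTGAA, diamonds for TTCGAA), NF-Y boxes (lines) and E2F forms (triangles) in bases from the RefSeq transcript start (x axis, vertical line at 0), for the 35 genes with a promoter window, ordered by log2 fold change (in brackets). CHR words lie within 50 bases of the start for 16 genes, and the genes at the bottom that fell, MIS12 and DSN1, have none; ZWINT has 2 annotated starts, so each of its words is drawn at 2 positions.

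All 4 genes of the centromeric nucleosome and its loading rose, 3 of them by at least 1.5-fold, against 38.7% and 9.61% of all genes tested. HJURP, the chaperone that deposits CENP-A, was at 77.5, 74.4, 75.3 and 78.8 CPM in control replicates 1 to 4 and 129, 125, 129 and 129 CPM in shHNRNPC replicates 1 to 4. CENPA, the centromeric histone, was at 19.7, 19.1, 20.7 and 21.1 CPM in controls and 33.5, 30.2, 34.04 and 32.4 CPM in shHNRNPC libraries. The groups did not overlap for either gene, and their log2 fold changes were 0.74 (SE 0.029) and 0.69 (SE 0.053). MIS18A and OIP5 (MIS18BETA) are subunits of the Mis18 complex, which licenses the centromere for loading. MIS18A was at 23.6, 23.5, 23.4 and 19.8 CPM in controls, with replicate 4 the lowest, and 35.3, 35.8, 34.5 and 34.5 CPM in shHNRNPC libraries. OIP5 was at 11.1, 10.6, 11.9 and 11.5 CPM and 15.9, 17.3, 16.7 and 16.8 CPM. Again every shHNRNPC library lay above every control, with log2 fold changes of 0.63 (SE 0.052) and 0.57 (SE 0.072). The adjusted p-values of the 4 genes in edgeR's quasi-likelihood test ran from 1.9e-33 for HJURP to 2.1e-10 for OIP5. OIP5 shares 38% of its exon bases with OIP5-AS1 on the opposite strand, and without a stated strand setting reads of both cannot be told apart. The log2 ratio of CENPA to HJURP was -1.93 ± 0.053 in controls and -1.98 ± 0.055 in shHNRNPC libraries (SD, n = 4 each) and overlapped between groups, with an exact two-sided permutation p of 0.229.

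Of the 14 CCAN genes 12 rose (85.7%), 5 by at least 1.5-fold (35.7%), against 38.7% and 9.61% of all genes tested. By edgeR's quasi-likelihood test 0 fell, where 38.6% of all genes tested were lower, while CENPC and CENPP did not pass it. At an unadjusted p under 0.05 and with DESeq2 no CCAN gene fell either. The largest rises were in CENPX and CENPW, histone-fold proteins that join CENPS and CENPT on centromeric DNA, and in CENPM and CENPI, which belong to 1 subcomplex with CENPH and CENPK. CENPX was at 27.4, 25.9, 27.1 and 27.4 CPM in controls and 47.8, 49.6, 47.02 and 49.5 CPM in shHNRNPC libraries. CENPW was at 13.1, 12.8, 12.5 and 13.02 CPM and 20.6, 22.9, 22.2 and 23.7 CPM. CENPM, with the lowest mean CPM of the 43 in controls, was at 10.8, 10.9, 11.1 and 11.9 CPM and 19.9, 21.4, 17.7 and 18.3 CPM. These 3 genes separated without overlap, and shHNRNPC replicates 1 and 2 were the highest for CENPM. Their log2 fold changes were 0.85 (SE 0.044), 0.80 (SE 0.065) and 0.79 (SE 0.072). CENPI was at 20.8, 21.9, 21.1 and 19.7 CPM in controls and 32.1, 33.1, 33.98 and 32.1 CPM in shHNRNPC libraries, a log2 fold change of 0.65 (SE 0.052). The adjusted p-values of these 4 were at most 1.5e-15 in edgeR's test.

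Among the other CCAN genes the size of the change varied widely. CENPO rose from 45.9 ± 1.39 to 71.6 ± 1.46 CPM (SD, n = 4), a log2 fold change of 0.64 (SE 0.036), and CENPL, CENPN, CENPQ and CENPH had log2 fold changes of 0.57, 0.56, 0.48 and 0.47. CENPO and CENPN share 31.4% and 22.8% of their exon bases with ADCY3 and CMC2 on the opposite strand. CENPU, CENPT and CENPK changed by only 0.13, 0.11 and 0.09, with adjusted p of 0.0192, 0.0236 and 0.0372 in edgeR's test. The CENPT groups overlapped, shHNRNPC replicates 2 and 3 (48.1 and 49.7 CPM) being within the control range of 44.7 to 50.7 CPM. All 3 of these calls were lost without shHNRNPC replicates 1 and 4 (log2 fold changes of 0.14, 0.03 and 0.09, with adjusted p of 0.0538, 0.609 and 0.0694). The CENPT and CENPK calls were also lost without control replicate 1, control replicate 4 or shHNRNPC replicate 1, that of CENPT without shHNRNPC replicate 4, and that of CENPK without shHNRNPC replicate 2 or with no filter on low counts. CENPC, which binds the CENP-A nucleosome and the MIS12 complex directly, was at 20.2, 22.6, 20.95 and 20.8 CPM in controls and 22.8, 20.8, 20.1 and 19.1 CPM in shHNRNPC libraries. The groups overlapped, with a log2 fold change of -0.03 and a 95% interval (1.96 standard errors) of -0.15 to 0.09. CENPP, a subunit of the CENP-O complex, was at 14.6, 15.3, 15.3 and 12.4 CPM and 13.1, 14.2, 13.1 and 14.6 CPM and also overlapped, at -0.07 with an interval of -0.21 to 0.08. It shares 42.7% of its exon bases with IPPK on the opposite strand.

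In the KMN network 7 of 10 genes rose, 2 fell and 1 did not pass the test, with different counts in its 3 complexes. All 4 subunits of the NDC80 complex, the main microtubule coupler, rose, with a median log2 fold change of 0.70. SPC25 (chr2:168861521-168890430, GRCh38) was at 13.4, 14.3, 15.4 and 14.3 CPM in controls and 29.3, 31.3, 29.97 and 30.5 CPM in shHNRNPC libraries. SPC24, its partner at the inner end of the complex, was at 25.1, 26.8, 24.9 and 27.5 CPM and 42.7, 42.6, 41.4 and 45.4 CPM. NUF2, which pairs with NDC80 at the outer end, was at 34.99, 34.4, 33.8 and 31.3 CPM and 53.1, 51.8, 55.7 and 54.5 CPM. Every shHNRNPC library exceeded every control for the 3 genes, and the log2 fold changes were 1.08 (SE 0.057), 0.72 (SE 0.047) and 0.68 (SE 0.043). NDC80 itself rose less, from 42.4 ± 0.803 to 53.1 ± 1.69 CPM (SD, n = 4), a log2 fold change of 0.32 (SE 0.039). The adjusted p-values of the 4 subunits were at most 5.3e-11 in edgeR's test. The SPC25 and NUF2 promoters printed above carry a CHR word near the start, the NDC80 promoter carries 2 adjacent ones, and the SPC24 window has CCAAT and no CHR word.

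The KNL1 complex also rose. ZWINT, the KNL1 partner, was at 58.1, 59.6, 59.7 and 56.5 CPM in controls and 98.7, 95.2, 101 and 91.8 CPM in shHNRNPC libraries, a log2 fold change of 0.72 (SE 0.033) with no overlap. KNL1, the scaffold to which BUB1 and BUB3 are recruited, rose from 73.1 ± 3.64 to 101 ± 1.48 CPM (SD, n = 4), or by 0.46 (SE 0.032). In the MIS12 complex, which links the CCAN to NDC80 and KNL1, 2 of 4 subunits fell, 1 rose and 1 did not pass, with a median of -0.07. Over all genes tested, 38.6% were lower, 38.7% higher and 22.7% did not pass, so these counts do not set the complex apart. MIS12 (chr17:5486374-5490811) was at 54.02, 54.1, 51.9 and 52.8 CPM in controls and 42.8, 46.7, 48.4 and 46.98 CPM in shHNRNPC libraries. DSN1 (chr20:36751795-36773763) was at 63.3, 60.5, 61.6 and 64.9 CPM and 55.8, 55.5, 54.4 and 55.2 CPM. All shHNRNPC libraries lay below all controls for both genes. Their log2 fold changes were -0.20 (SE 0.040) and -0.18 (SE 0.036), with adjusted p of 8.1e-06 and 7.7e-06 in edgeR's test, and both calls held in all 15 alternatives tried. NSL1 was at 141, 139, 138 and 143 CPM and 146, 144, 144 and 144 CPM. Its groups did not overlap, yet the difference of 0.05 (interval -0.0018 to 0.095) did not pass (adjusted p = 0.0803 in edgeR's test), and it passed only without control replicate 4 (0.06, adjusted p = 0.0432). PMF1 rose by 0.27 (SE 0.078), and 23.3% of its exon bases belong also to the PMF1-BGLAP readthrough gene on the same strand.

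The RZZ complex, made of ZW10, ZWILCH and the KNTC1 (ROD) product, brings dynein and MAD1 to kinetochores. Of its 3 genes, 1 rose by over 1.5-fold, 1 rose slightly and 1 did not pass the test. Over all genes tested, 38.7% were higher, 9.61% by at least 1.5-fold, and 22.7% did not pass. ZW10 was at 43.8, 42.4, 41.8 and 42.4 CPM in controls and 68.8, 69.1, 69.4 and 69.4 CPM in shHNRNPC libraries, a log2 fold change of 0.70 (SE 0.036). ZWILCH was at 74.7, 79.02, 75.6 and 77.2 CPM and 82.7, 81.7, 84.9 and 79.5 CPM, a small rise of 0.10 (SE 0.032) with an adjusted p of 0.0032 in edgeR's test. KNTC1 was at 114, 115, 114 and 118 CPM and 122, 115, 110.4 and 119.7 CPM, with overlapping groups. Its log2 fold change was 0.01 with an interval of -0.04 to 0.07, and its sign turned with library totals, without shHNRNPC replicate 1 and without shHNRNPC replicates 1 and 4. ZW10 also acts outside mitosis, in membrane traffic.

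The SKA complex tracks microtubule ends together with NDC80. SKA3 was at 41.9, 37.7, 39.7 and 41.8 CPM in controls and 47.8, 49.6, 49.8 and 50.8 CPM in shHNRNPC libraries, and SKA2 was at 59.4, 63.6, 56.4 and 61.4 CPM and 72.7, 73.6, 72.3 and 73.02 CPM. Both rose without overlap, by 0.30 (SE 0.042) and 0.28 (SE 0.035). SKA1 was at 29.8, 29.2, 28.3 and 26.96 CPM and 32.1, 31.2, 29.8 and 27.1 CPM. Its groups overlapped, shHNRNPC replicates 3 and 4 being within the control range, and the log2 fold change of 0.07 (interval -0.03 to 0.17) did not pass (adjusted p = 0.200 in edgeR's test). Without shHNRNPC replicate 4 it was 0.12 and passed (adjusted p = 0.0391).

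In the spindle checkpoint 5 of 6 genes rose and BUB3 fell, where 38.7% of all genes tested were higher and 38.6% lower. BUB1, a kinase that marks centromeric chromatin, was at 86.9, 85.7, 91.8 and 89.9 CPM in controls and 139, 138, 146 and 146 CPM in shHNRNPC libraries. TTK (MPS1), the kinase that starts checkpoint signalling on KNL1, was at 63.2, 60.01, 62.6 and 58.6 CPM and 93.2, 95.1, 97.5 and 93.5 CPM. The groups lay far apart for both kinases, with log2 fold changes of 0.69 (SE 0.028) and 0.63 (SE 0.032). MAD2L1 (MAD2), the inhibitor of CDC20, was at 52.4, 56.2, 55.9 and 53.1 CPM and 67.1, 69.2, 67.4 and 65.2 CPM. MAD1L1 (MAD1), which holds MAD2 at the kinetochore, was at 35.5, 34.4, 35.2 and 34.5 CPM and 44.3, 41.3, 44.1 and 41.9 CPM. These rises were smaller, 0.31 (SE 0.036) and 0.30 (SE 0.043), again without overlap. BUB1B (BUBR1), a subunit of the mitotic checkpoint complex, rose from 106 ± 2.43 to 126 ± 0.741 CPM (SD, n = 4), or by 0.25 (SE 0.027). BUB3 (chr10:123154402-123170467), the adaptor that binds both BUB1 and BUBR1, was at 237, 232, 230.2 and 241 CPM in controls and 198, 194, 195 and 200.5 CPM in shHNRNPC libraries. It was lower in all 4 shHNRNPC libraries, at a log2 fold change of -0.26 (SE 0.022) with an adjusted p of 3.2e-16 in edgeR's test, and the call held in all 15 alternatives. BUB3, BUB1 and MAD2L1 have named pseudogenes in RefSeq, as do 6 others of the 43 genes, and how reads of such copies were counted is not given in the sources used here.

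All 3 corona and spindle attachment genes rose, where 38.7% of all genes tested were higher. SPAG5 rose the most of the 43 genes and CENPF the third most after SPC25, while the rise of CENPE was below the median of the 43. SPAG5 (astrin, chr17:28577574-28599025), which stabilises attached kinetochores, was at 79.8, 75.1, 78.1 and 72.9 CPM in controls and 165, 166, 169 and 174 CPM in shHNRNPC libraries. CENPF (chr1:214603195-214664571), a large coiled-coil protein of the corona, was at 743, 754, 731 and 712 CPM and 1480.1, 1465, 1469 and 1475 CPM. CENPE, the kinetochore kinesin, was at 56.3, 57.8, 56.1 and 56.4 CPM and 70.5, 72.95, 75.5 and 71.7 CPM. All 3 separated without overlap. SPAG5 and CENPF rose by 1.14 (SE 0.028) and 1.00 (SE 0.018) on the log2 scale, with adjusted p of 4.3e-44 and 1.4e-51 in edgeR's test, and CENPE by 0.36 (SE 0.034). SPAG5, SPC25 and CENPF were the 3 of the 43 genes that rose at least 2-fold. SPAG5 shares 15.9% of its exon bases with another annotated gene on the same strand.

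**Figure D3:**
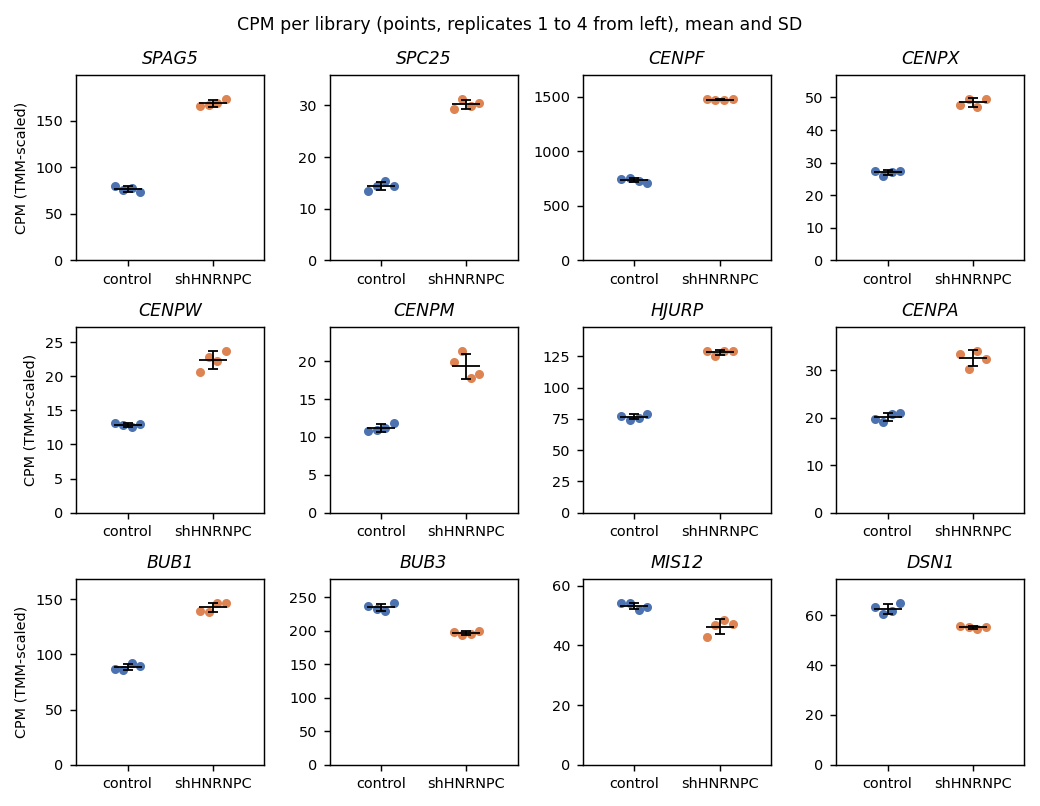
CPM (TMM-scaled, y axes from 0) of 12 of the genes in each library, with controls in blue and shHNRNPC in orange, points in order of replicate 1 to 4, and bars for the mean and SD. Only genes without overlap are shown, so the groups are apart in every panel. The shHNRNPC libraries are higher in 9 panels and lower for BUB3, MIS12 and DSN1. Of the 43 genes 5 had overlapping groups and are not shown, and 70.8% of all genes tested separated.

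Levels of different genes were compared only per length, as CPM per kilobase of merged annotated exons, a length that need not be that of the transcripts these cells make. CENPF was the highest of the 43 in both groups, at 62.9 ± 1.5 in controls and 126 ± 0.57 in shHNRNPC libraries (SD, n = 4), and CENPP the lowest, at 1.47 ± 0.14 and 1.40 ± 0.078. In the NDC80 complex the control order was NDC80 (11.8 ± 0.22), NUF2 (10.004 ± 0.49), SPC24 (9.20 ± 0.44) and SPC25 (7.80 ± 0.43). NUF2 and SPC24 overlapped between libraries, and the other neighbours did not. In shHNRNPC libraries the levels were 14.7 ± 0.47 for NDC80, 15.99 ± 0.50 for NUF2, 15.2 ± 0.60 for SPC24 and 16.4 ± 0.47 for SPC25. SPC25, the lowest subunit in controls, thus had the highest mean, and each neighbour in the new order overlapped the next. In the checkpoint, BUB3 was highest in controls (28.3 ± 0.60), followed by BUB1B (23.6 ± 0.54), BUB1 (14.7 ± 0.46), TTK (13.3 ± 0.47), MAD2L1 (9.46 ± 0.34) and MAD1L1 (4.83 ± 0.073), with no overlap between neighbours. In shHNRNPC libraries BUB1B led (28.1 ± 0.17), and BUB3 (23.7 ± 0.38) and BUB1 (23.6 ± 0.74) overlapped.

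**Figure D4:**
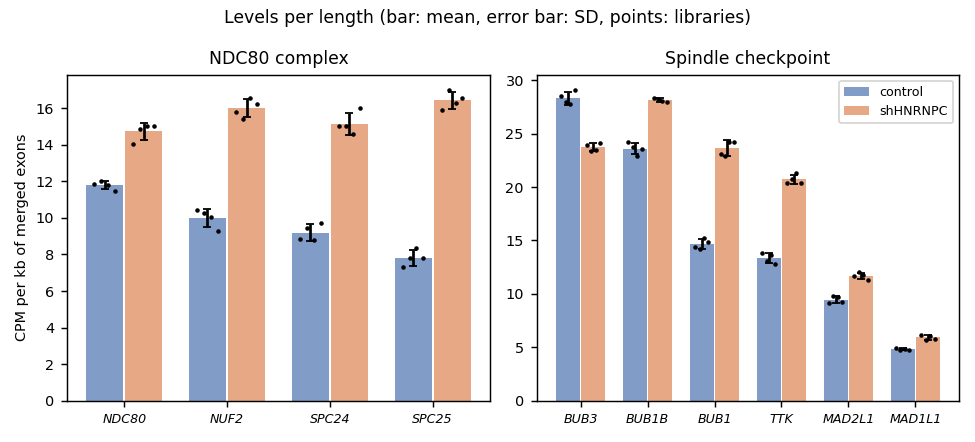
CPM per kilobase of merged exons (y axis from 0) for the 4 NDC80 complex genes and the 6 checkpoint genes, with bars for group means, error bars for SD and points for libraries. The 4 NDC80 complex genes run from 7.80 to 11.8 in controls and from 14.7 to 16.4 in shHNRNPC libraries, and BUB3 is the only gene whose shHNRNPC bar is lower.

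Because partners in a complex changed by different amounts, the log2 ratio of 2 partners' CPM was taken within each library for 16 pairs, chosen with the fold changes known. The groups did not overlap for 11 of the 16 pairs. Each of the 11 had an exact two-sided permutation p of 0.0286, the smallest that 4 against 4 libraries can give. Adjusted by Benjamini-Hochberg over the 16, this permutation p was 0.0416. The adjustment does not correct for choosing the pairs with the fold changes known, so these p-values add no support to those differences. Separation of the groups was common for single genes in these libraries, since the CPM of 70.8% of all genes tested separated. No such share was taken for ratios of 2 genes, and the count of pairs is no sign that these pairs stand apart. The largest shift was in BUB1 to BUB3, where the log2 ratio was -1.41 ± 0.055 in controls and -0.47 ± 0.043 in shHNRNPC libraries (SD, n = 4), a difference of 0.94. BUB1B to BUB3 shifted the same way, by 0.51. Relative to BUB3, both of its partners were higher in every shHNRNPC library than in any control. The 2 pairs of the NDC80 complex shifted by nearly the same amount, with NDC80 to NUF2 at -0.35 and SPC24 to SPC25 at -0.35. In each of these pairs the partner named last gained on the other. In the CCAN, CENPT to CENPW fell by 0.69 and CENPO to CENPP rose by 0.71, while CENPH to CENPK and CENPQ to CENPU rose by 0.39 and 0.35. MIS12 to PMF1, KNL1 to ZWINT and DSN1 to NSL1 had differences of -0.48, -0.26 and -0.23. The remaining 5 ratios overlapped between groups, namely CENPA to HJURP, MIS18A to OIP5, CENPI to CENPM, CENPL to CENPN and MAD1L1 to MAD2L1, with differences from -0.14 to 0.07. All 10 genes of these 5 pairs rose, so in them both partners rose by amounts that these ratios did not tell apart.

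**Figure D5:**
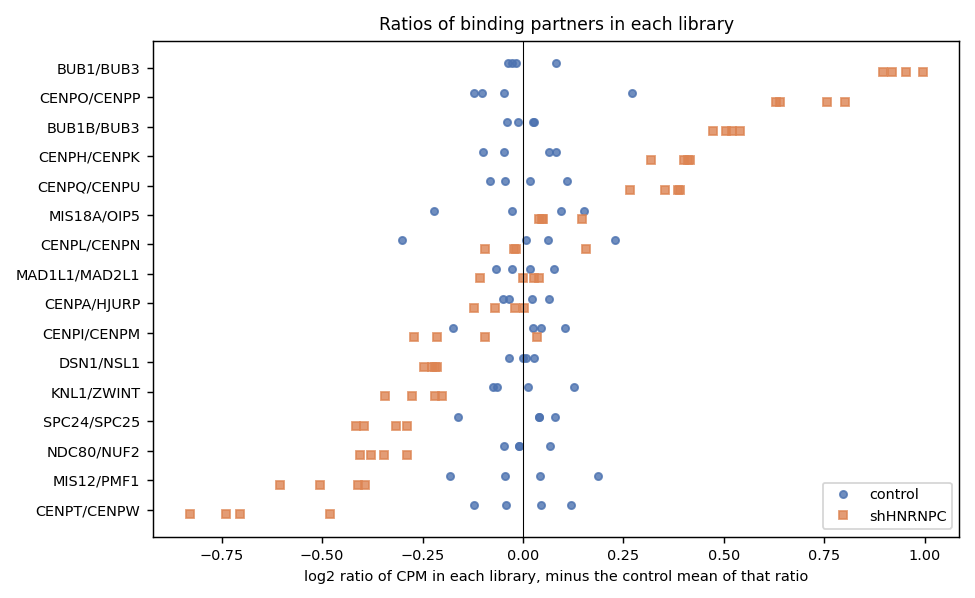
Log2 ratio of the CPM of 2 partners in each library, minus the mean of the control libraries, for 16 pairs, with 4 control and 4 shHNRNPC points per pair. The shHNRNPC points lie outside the control points for 11 pairs, from 0.94 for BUB1 to BUB3 down to -0.69 for CENPT to CENPW, and the groups overlap for 5.

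Other genes of the pathway were read from 4 lists, of 20, 4, 13 and 20 genes. In all, 42 of these genes rose and 8 fell, or 40 and 8 without shHNRNPC replicates 1 and 4. Over all genes tested, 38.7% were higher and 38.6% lower. Of 20 further kinetochore and checkpoint genes, 15 rose, 3 fell and 2 did not pass the test, with a median log2 fold change of 0.39. The smallest of these rises, CLASP1 at 0.08, had overlapping groups, and its call was lost without control replicate 2 (adjusted p = 0.0641), with library totals (0.0648) and without shHNRNPC replicates 1 and 4 (0.0821). ERCC6L (PICH), a translocase on anaphase DNA bridges, rose from 29.9 ± 2.54 to 62.2 ± 0.705 CPM, or by 1.06 (SE 0.044). PLK1, the mitotic kinase, and TRIP13, the ATPase that remodels MAD2, rose by 0.91 (SE 0.025) and 0.87 (SE 0.027). The 3 that fell were CLASP2, a microtubule stabiliser, BOD1, a regulator of phosphatase activity at kinetochores, and the CCAN gene ITGB3BP (CENPR), at -0.54, -0.53 and -0.22. None of them fell by 1.5-fold, and they, CLASP1 and CENPS are named after their values were seen. CENPS, the partner of CENPX, was at 0.350 ± 0.101 CPM in controls and 0.327 ± 0.152 CPM in shHNRNPC libraries (SD, n = 4 each) and did not pass, and 64.8% of its exon bases are shared with the CENPS-CORT readthrough gene. All 4 genes of the chromosomal passenger complex, which corrects wrong attachments, rose, with a median of 0.78. BIRC5 (survivin), INCENP and CDCA8 (borealin) rose by 1.503 (SE 0.032), 0.84 (SE 0.026) and 0.73 (SE 0.030). Of 13 spindle assembly and dynein factors 11 rose, 0 fell and 2 did not pass, in edgeR's and in DESeq2's test and at an unadjusted p under 0.05, with a median of 0.26. PRC1, TPX2 and KIF11 rose by 1.22, 0.81 and 0.62, and PRC1 shares 58.4% of its exon bases with another annotated gene.

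Of 20 regulators of transcription in G2/M and G1/S, 12 rose (60.0%), 5 fell (25.0%) and 3 did not pass the test. Over all genes tested, 38.7% rose and 38.6% fell. The median log2 fold change of the 20 was 0.14. MYBL2 (B-MYB), the MYB subunit of the complex that binds CHR elements with MuvB, was at 104, 104, 97.05 and 98.5 CPM in controls and 270.5, 261, 278 and 272 CPM in shHNRNPC libraries, a rise of 1.42 (SE 0.025). E2F2 and E2F8 rose by 0.92 (SE 0.081) and 0.69 (SE 0.055). FOXM1 rose by 0.64 (SE 0.022). NFYA, a subunit of the factor that binds CCAAT, was at 40.9, 38.6, 40.9 and 43.8 CPM and 25.6, 27.6, 25.2 and 25.1 CPM. It fell by 0.66 on the log2 scale (SE 0.048), without overlap, and was the 1 gene of the 4 lists that fell by at least 1.5-fold. NFYC rose by 0.26. NFYB rose by 0.11 with overlapping groups, and its adjusted p of 0.0378 in edgeR's test did not hold without shHNRNPC replicates 1 and 4 (adjusted p = 0.146). The NFYB call was also lost without control replicate 3 or 4, without shHNRNPC replicate 1, 3 or 4, with library totals and with no filter on low counts. The other genes that fell were LIN52, E2F4, E2F7 and RBL2, at -0.27, -0.24, -0.22 and -0.12. These 4, FOXM1, NFYB and NFYC were also named after their values were seen.

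The 43 genes varied little between libraries of a group. The coefficient of variation of CPM had a median of 3.57% in controls and 2.97% in shHNRNPC libraries, and was at most 9.72% and 8.41%. Between shHNRNPC replicates 2 and 3 and replicates 1 and 4, the log2 ratio of the means lay between -0.16 and 0.10 for every one of the 43 genes. Of the 38 genes that share at most 20% of their exon bases with another annotated gene, 31 rose and 3 fell, and of the 5 genes with a larger overlap 4 rose.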

How the data were processed

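Poly(A) RNA of 4 control and 4 shHNRNPC samples of KYSE150 cells was sequenced as paired reads of 150 bases. Per the series design text, fastp discarded reads of low quality. The submitters' processing notes name the build hg38. Neither the aligner nor the counter, gene annotation or strandedness is given in the sources used here. The authors deposited 1 table of raw counts, with 16082 genes as rows and the 8 samples as columns.

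Low genes were dropped by filterByExpr of edgeR (count of at least 10, total of at least 15), which left 12001 genes, all 43 members among them, and TMM factors scaled the libraries. The main comparison was edgeR's quasi-likelihood test (robust fit, group term alone) on all 8 samples. Its p-values were adjusted by Benjamini-Hochberg over the 12001 genes, with 0.05 as the threshold. The standard error (SE) of a log2 fold change is its absolute value over the root of F. Single ratios were compared by exact two-sided permutation over all 70 assignments. The members and the gene lists were chosen with earlier results of these data known. Within each role, values in every sample are given for up to 4 genes past the threshold with the largest absolute change and at least 1 CPM, and for each gene that fell or did not pass. Of each other list, the rule names up to 3 genes and any that fell by at least 1.5-fold, and further genes are marked as named after their values were seen. Gene identifiers were matched to RefSeq (GRCh38.p14) for 16038 genes and to GENCODE release 29 for 15966, which gave exon lengths and overlaps. Promoter windows come from RefSeq. Library totals differed by less than the spread between replicates (exact two-sided permutation p = 0.657). The chi-square statistic per degree of freedom between replicate libraries was 2.66 to 3.70, so none repeated another. The alternatives were 2 other scalings, DESeq2, 2 other count filters, leaving out each library, leaving out shHNRNPC replicates 1 and 4, and a replicate block. The test was checked on simulated data in which most genes were unchanged. It called 10 of 11801 unchanged genes, 38 of 50 changed by 1.25-fold, 43 of 50 by 1.5-fold and 50 of 50 by 2-fold. Most genes passed in the real data, so the scaling under such broad change was not checked. Versions were R 4.3.3, edgeR 4.0.16, DESeq2 1.42.0, Python 3.11.15 and scipy 1.17.1.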

Additional observations from a re-analysis of the deposited data

Results flagged for a closer look

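For each of the 43 genes, the 4 CPM values of each group were examined for 1 library far from the other 3 (Dixon's test at 95%), and 3 of 86 groups were found. Chance gives about 1 in 20 groups (5%). HJURP was at 125.0 CPM in shHNRNPC replicate 2, with the other shHNRNPC libraries at 128.9 to 129.3 CPM. MIS18A was at 19.8 CPM in control replicate 4, with the other controls at 23.4 to 23.6 CPM. KNTC1 was at 118.2 CPM in control replicate 4, with the other controls at 114.4 to 114.7 CPM. HJURP and MIS18A rose in each fit that left out 1 library, and KNTC1 passed the test in none.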

How the results depend on the processing

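Under 15 alternatives, the number of the 43 genes that rose was 32 to 35 and the number that fell was 3 in each. A rise of at least 1.5-fold was seen for 17 to 19 of them, and their median log2 fold change was 0.45 to 0.51. Over all genes, 8825 to 9593 passed the test. Of the 43 genes, 36 kept their direction and their side of the threshold in every alternative. The exceptions were CENPK, CENPT and CENPU, whose calls were lost as described above, NSL1 and SKA1, which passed without 1 library, and CENPC and KNTC1, which never passed and changed sign. Leaving out 1 library at a time, CENPC ran from -0.075 to 0.00803 and was above 0 without control replicate 2 (0.00344) or shHNRNPC replicate 4. KNTC1 ran from -0.00382, without shHNRNPC replicate 1, to 0.043, and was at -0.00734 with library totals and -0.032 without shHNRNPC replicates 1 and 4. Of the other lists, CENPS ran from -0.38 to 0.15, above 0 without control replicate 2 (0.057), control replicate 4 (0.00651) or shHNRNPC replicate 1, and was at 0.24 without shHNRNPC replicates 1 and 4. MAD2L1BP ran from -0.076 to 0.051, above 0 without control replicate 2 or shHNRNPC replicate 1 (0.042), and was at 0.046 without shHNRNPC replicates 1 and 4. The cause was not tested. Leaving out 1 library at a time, 33 to 35 of the 43 genes rose.

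Samples with the same replicate number did not deviate together (correlations of -0.055 to 0.017, and 1 of 4 samples correlated best with its own number), so the numbers are not taken to pair the samples. With replicate number as a block, 35 of the 43 genes rose, 3 fell, 17 rose by at least 1.5-fold, the median was 0.47 and 9219 of all genes passed.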
